A study of Saccharomyces cerevisiae with 6 samples.

Results

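The *SEC* genes of budding yeast were named in screens for mutants that fail to move proteins along the secretory pathway. Their products act at successive steps. Sec61p and its partners form the translocon, the channel through which new proteins enter the endoplasmic reticulum (ER). The COPII coat buds vesicles that leave the ER, the COPI coat buds vesicles that carry proteins back from the Golgi, SNAREs and their helpers fuse vesicles with membranes, and the exocyst holds secretory vesicles at the plasma membrane before fusion.

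The members were all genes whose symbol in the platform annotation is SEC and a number. There were 36 among the 5656 genes measured. They were placed in 7 classes by the known role of their products, with 5 genes of the translocon, 4 other ER factors, 6 of COPII, 4 of COPI, 6 of the exocyst, 7 SNAREs and fusion factors, and 4 regulators of the Golgi and of Rab proteins. Each gene was represented by its brightest probe set, meaning the set of short probes that reads a transcript. Of the 36 genes, 35 had 1 probe set and *SEC16* had 9.

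RNA came from *S. cerevisiae* S288C, a haploid strain of mating type α with the alleles *SUC2*, *CUP1*, *gal2*, *mal*, *mel*, *flo1* and *flo8-1*. A group of 3 independent cultures was given 70 μM pterostilbene, a stilbene of plants, and another of 3 was given the solvent alone (0.25% DMSO). The compound was added from a 0.5 M stock in DMSO, but the final share of DMSO in the treated cultures is not stated. A dose of 70 μM from that stock brings in less DMSO than the controls received, unless more DMSO was added. A difference in solvent between the groups therefore cannot be told apart from an effect of the compound. Cells were treated at an absorbance of 0.2 and harvested at 0.5, in synthetic dextrose medium, and each culture was measured on 1 Affymetrix Yeast Genome S98 array. The dose was chosen because it inhibits growth, so a direct effect of the compound and slower growth cannot be told apart, nor can fewer cells expressing a transcript and less of it per cell.

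Values are signals on a linear intensity scale that the authors' software had already scaled on each array. The median signal over all probe sets was 161.6 to 170.2 on the pterostilbene arrays and 119.4 to 123.8 on the control arrays, whereas the median over the 36 *SEC* genes was 468 to 478 on the pterostilbene arrays and 454 to 477 on the control arrays. Arrays of a group correlated at 0.967 to 0.975 with pterostilbene and at 0.965 to 0.969 in the controls on the log2 scale, and arrays of different groups at 0.914 to 0.924. The ratio of the 3′ to the 5′ control probe set of actin, a measure of RNA integrity, was 1.41 to 1.502 with pterostilbene and 1.02 to 1.35 in the controls, and its part in the results was not tested. All 4 α-specific mating genes examined fell with pterostilbene, to mean signals of 69.3 to 5059.6, against 1748 to 12450.5 in the controls. The 6 **a**-specific genes had mean signals of 13.7 to 524 with pterostilbene and 2.90 to 241 in the controls. Of these, *MFA1*, *STE6*, *BAR1* and *ASG7* rose, *STE2* fell and *MFA2* did neither.

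Differences are log2 fold changes, pterostilbene minus control, from limma's moderated test. The words rose and fell are used of genes whose p, adjusted by the Benjamini-Hochberg method over all 9275 probe sets tested, was under 0.05. A gene said to pass or not to pass is judged on the signals as deposited unless another setting is named. Some genes that did not pass were called under another scaling. A level given as a percentage is the ratio of geometric mean signals.

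Among the 36 *SEC* genes, 12 (33.3%) fell and 1 (2.78%) rose, and the other 23 stayed short of the threshold. Among all 5656 genes, 18.4% fell and 35.8% rose, and the counts of each class and partner list below are to be read beside these shares. The genes that fell were *SEC62* and *SEC72* of the translocon, *SEC53* among the other ER factors, *SEC13* of COPII, *SEC21*, *SEC26* and *SEC27* of COPI, *SEC20*, *SEC22* and *SEC39* of the SNAREs and fusion factors, and *SEC7* and *SEC14* of the Golgi regulators. The only one that rose was *SEC3* of the exocyst. With the signals as deposited all changes were less than 2-fold, and the largest fall, that of *SEC53*, brought it to 54.5% of control. Other scalings, described below, gave some falls of more than 2-fold.

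The 3 pterostilbene signals lay below the 3 control signals for 14 members and above them for 6, against 24.5% and 44.2% of all genes, and the groups overlapped for 16 members. The median log2 fold change was -0.13 over the *SEC* genes and 0.22 over all genes. With 12 calls the count depends on single arrays. It was 6 without control replicate A, 7 without control replicate C and 7 without pterostilbene replicate A or B, and the calls over all genes became fewer as well, with 743 to 774 genes lower in place of 1041 without control replicate A or without pterostilbene replicate A or B, and 870 without control replicate C. The falls of *SEC53*, *SEC26*, *SEC27*, *SEC20*, *SEC22* and *SEC7* passed the test under every one of 16 alternative analyses.

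**Figure D1:**
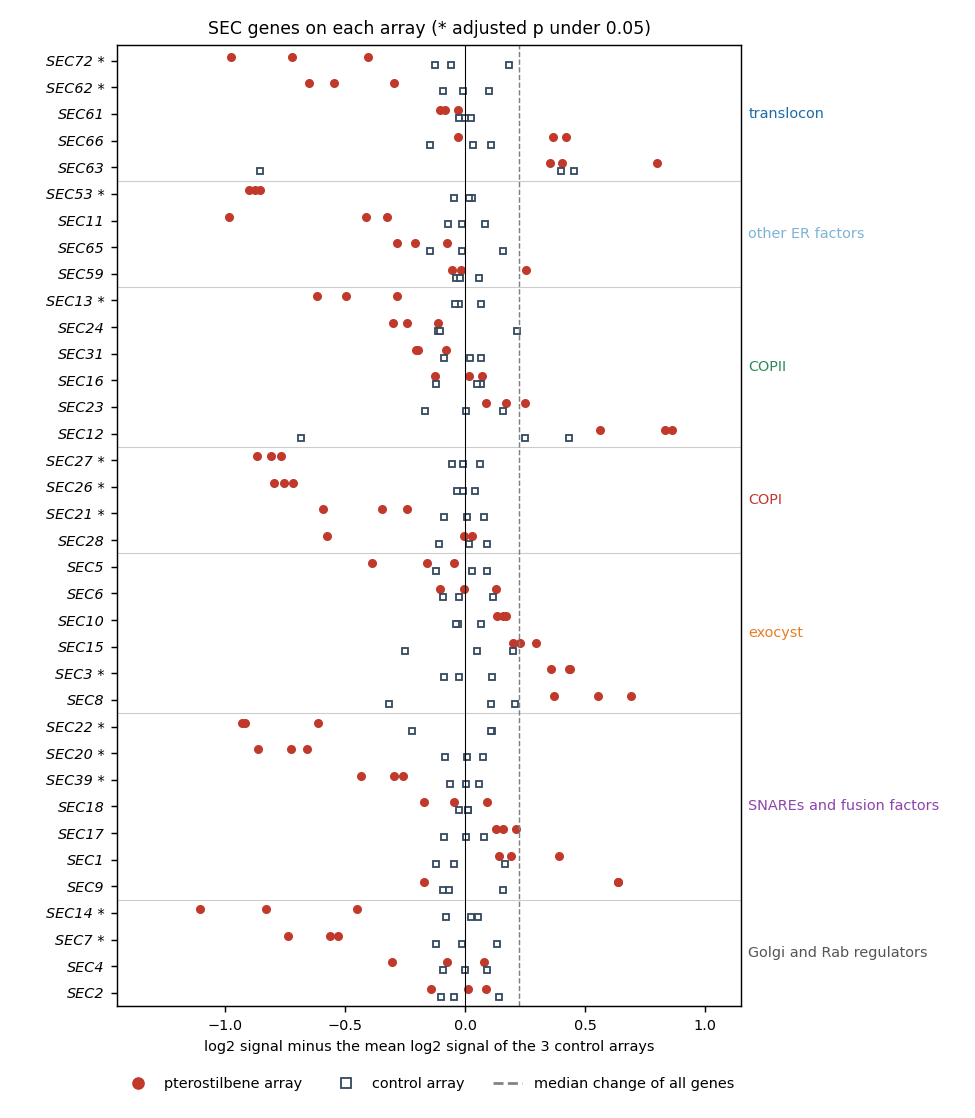
Log2 signal of each SEC gene on each of the 6 arrays (x axis), with the mean of the 3 control arrays set to 0, by class. Circles are pterostilbene arrays and squares control arrays, the dashed line marks the median change of all genes (0.22), and the circles of *SEC26*, *SEC27*, *SEC53* and *SEC20* lie in tight clusters left of their squares, while those of *SEC3* lie to the right.

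Scaling matters here because the median gene had moved. Its log2 fold change was 0.22 with the signals as deposited, -0.13 under quantile normalization, -0.23 with the median of each array set to the same value and 0.36 with the mean of 5 reference genes set to the same value (called median centring and reference gene centring here). After quantile normalization 15 *SEC* genes were lower and none, 0 of 36, was higher, against 30.4% and 21.6% of all genes. After median centring 26 were lower and 0 higher, against 39% and 19.3%. After reference gene centring 10 were lower and 4 higher, against 14.5% and 43.7%. The share of *SEC* genes called lower was above that of all genes under each of these 4 scalings, and the share called higher was below it. The median of the *SEC* genes lay 0.35 log2 units below that of all genes with the signals as deposited, and 0.20 below it after quantile normalization. Median centring and reference gene centring shift all genes of an array equally, so they leave the 0.35 unchanged by construction.

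Signal strength moved with the change. Among all genes the median log2 fold change was 0.58 in the dimmest quintile of genes by mean signal, 0.35, 0.28 and 0.15 in the following quintiles and -0.27 in the brightest. No *SEC* gene lay in the dimmest quintile and 13 lay in the brightest. Of these 13, 8 fell, with a median of -0.47, while 42.4% of all genes of that quintile were lower. In the quintile next to the dimmest 1 of 7 fell, with a median of 0.15, and 9.37% of all genes there were lower. In the middle quintile 3 of 8 *SEC* genes fell, with a median of -0.19, while 13.9% of all genes there were lower. In the next brighter quintile 0 of 8 fell and 1 rose, with a median of 0.09, while 21.0% of all genes there were lower and 35.6% higher, so the higher share of falls among the *SEC* genes was not seen in this quintile. Across the 36 genes Spearman's rank correlation between log2 fold change and mean log2 signal was -0.48, and it was -0.33 across 5486 protein-coding genes, as a description over genes that share the same 6 arrays.

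**Figure D2:**
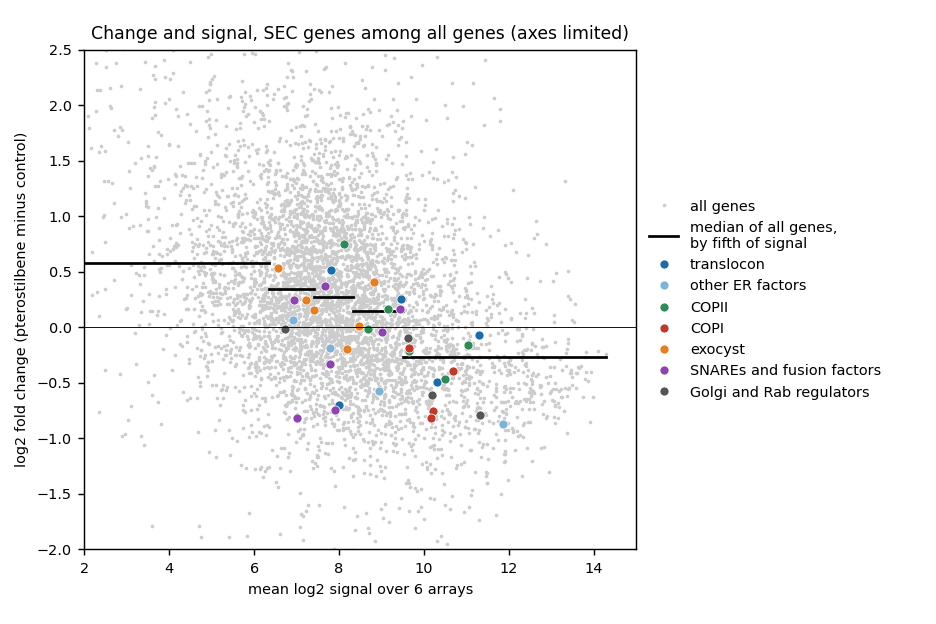
Log2 fold change (y axis, pterostilbene minus control) against mean log2 signal over 6 arrays (x axis) for all genes in grey and the SEC genes coloured by class, with genes beyond the axis limits not drawn. Black bars are medians of all genes in each quintile of signal, from 0.58 in the dimmest to -0.27 in the brightest, and *SEC26*, *SEC27*, *SEC53* and *SEC14* lie below the last bar.

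The COPI coat is built from coatomer, a complex whose subunits are recruited to Golgi membranes together. Of its 4 *SEC* genes, 3 fell and none rose, and their median log2 fold change of -0.58 was the lowest of the 7 classes with the signals as deposited. All 4 lay in the brightest quintile, where 42.4% of all genes were lower and the median was -0.27. By log2 fold change within that quintile, *SEC27* and *SEC26* lay at percentiles 14.9 and 18.2, and *SEC21* and *SEC28* at 40.5 and 55.6. *SEC27*, the β′ subunit, had signals of 890.0, 864.0 and 829.2 with pterostilbene, against 1460.2, 1503.4 and 1581.0 in the controls. It fell to 56.8% of control (log2 fold change -0.81, SE 0.09, adjusted p = 0.0014). *SEC26*, the β subunit, had signals of 917.4, 891.8 and 942.4 with pterostilbene and 1540.3, 1515.8 and 1592.4 in the controls. It fell to 59.2% of control (-0.76, SE 0.09, adjusted p = 0.0016), and for both of these genes the gap between the groups was larger than the spread within them. *SEC21*, the γ subunit, had signals of 1240.9, 1470.3 and 1580.7 with pterostilbene and 1879.3, 1979.0 and 1761.4 in the controls, and fell to 76.1% (-0.39, SE 0.13, adjusted p = 0.048). This call lies at the threshold and held in 7 of 16 alternatives. The gene did not pass under quantile normalization (adjusted p = 0.078) or reference gene centring (adjusted p = 0.092). Nor did it pass with the methods' t-test (adjusted p = 0.059) or with the replicate letter as a block (adjusted p = 0.11). The call was also lost without any array taken singly other than pterostilbene replicate C. *SEC28*, the ε subunit, did not pass the test, with signals of 846.6, 868.7 and 571.0 with pterostilbene and 789.2, 860.2 and 905.0 in the controls (-0.18, 95% confidence interval -0.66 to 0.29, adjusted p = 0.47). Its value rests on pterostilbene replicate C, the lowest of the 6 arrays, and was 0.01 without it.

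The ratio of the subunits with the deepest falls to *SEC28* varied between the pterostilbene arrays. The log2 ratio of *SEC27* to *SEC28*, relative to its control mean, was -0.76, -0.84 and -0.29 with pterostilbene, against 0.06, -0.03 and -0.03 in the controls. That of *SEC26* to *SEC28* was -0.75, -0.83 and -0.14 with pterostilbene, against 0.10, -0.05 and -0.05 in the controls, so pterostilbene replicate C lay close to the controls. These ratios are free of a factor that multiplies all signals of an array equally. The pairs were chosen after the values were seen, so no test is given.

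Of 15 partners of COPI, 7 (46.7%) fell and 1 rose, and their median log2 fold change was -0.32. Among them 5 lay in the brightest quintile, where 42.4% of all genes were lower, and 4 of these 5 fell, while 3 of the other 10 fell. *COP1*, the α subunit of the coat, fell to 62.8% of control (-0.67, SE 0.12, adjusted p = 0.0075), and *RET2*, the δ subunit, fell less (-0.31, SE 0.10, adjusted p = 0.040), while *RET3*, the ζ subunit, had -0.23 (adjusted p = 0.21). *GEA1*, an exchange factor that activates the GTPase Arf (-0.80, adjusted p = 0.0031), *GCS1*, a GTPase activating protein of Arf (-0.68, adjusted p = 0.0042), and *ARF2*, an Arf GTPase (-0.50, adjusted p = 0.0067), had the smallest adjusted p of this list. *ARF1* (-0.54) and *RER1*, a receptor that returns ER membrane proteins (-0.42), also fell, the calls of *ARF1* and *ARF2* did not hold after quantile normalization (adjusted p = 0.14 and 0.063), and those of *RET2* and *RER1* did not hold after reference gene centring (adjusted p = 0.20 and 0.060). *UFE1*, a SNARE at which these vesicles fuse with the ER, was higher (0.41, adjusted p = 0.045), but had -0.022 after quantile normalization. Besides *RET3*, the partners that did not pass were *GEA2* (-0.46), *DSL1* (-0.32), *GLO3* (-0.07), *USE1* (0.09), *ERD2* (0.25) and *TIP20* (0.27).

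COPII assembles in layers, and the 6 *SEC* genes of this coat mostly did not pass the test, with 1 lower and 0 higher and a median log2 fold change of -0.09. *SEC13*, which builds the outer cage and is also a nucleoporin, had signals of 1105.3, 1201.1 and 1393.2 with pterostilbene and 1777.0, 1663.4 and 1646.2 in the controls. It fell to 72.4% of control (-0.47, SE 0.12, adjusted p = 0.024), a call that held under the 4 scalings and was lost without any array taken singly other than pterostilbene replicate C (adjusted p = 0.051 to 0.081). *SEC31*, its partner in the cage, did not pass, with signals of 1935.5, 1945.3 and 2113.5 with pterostilbene and 2262.9, 2101.4 and 2332.8 in the controls (-0.16, interval -0.40 to 0.08, adjusted p = 0.23). After median centring *SEC31* was lower (-0.61, adjusted p = 0.0029), while it had -0.06 after quantile normalization and -0.03 after reference gene centring. The inner coat genes were also short of the threshold. *SEC24*, which binds cargo, had signals of 736.0, 805.4 and 707.3 with pterostilbene and 805.0, 808.6 and 1010.9 in the controls (-0.22, adjusted p = 0.23), and the groups overlapped narrowly. *SEC23*, the GTPase activating protein of Sar1p, had a log2 fold change of 0.17 (adjusted p = 0.30).

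*SEC12*, the exchange factor that starts COPII assembly, had signals of 317.3, 389.9 and 382.6 with pterostilbene and 255.5, 133.8 and 289.6 in the controls. The groups did not overlap, but the control spread was wide and the gene did not pass (0.75, interval -0.02 to 1.53, adjusted p = 0.098). Control replicate B was the low array, and without it the log2 fold change was 0.41. *SEC16*, the scaffold of ER exit sites, was close to 0 (-0.01, interval -0.28 to 0.26) on its brightest probe set. Its other probe sets with a mean signal over 300 differed from each other in direction, at -0.57 (adjusted p = 0.090) and 0.51 (adjusted p = 0.16), and none of its probe sets passed the test.

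Of 16 COPII partners, 4 (25%) fell and 1 (6.25%) rose, against 18.4% and 35.8% of all genes, with a median of -0.18. The falls included *EMP24* (-0.83, SE 0.09, adjusted p = 0.0012), *ERP1* (-0.80, SE 0.10, adjusted p = 0.0021) and *ERV25* (-0.64, SE 0.13, adjusted p = 0.010), which encode p24 proteins that cycle in COPII vesicles as a complex, and these 3 were lower under each of the 4 scalings. *ERP2*, another p24 gene of this list, did not pass (-0.27, adjusted p = 0.056). It was lower after quantile normalization (-0.50, adjusted p = 0.0070) and median centring (-0.72, adjusted p = 0.0016), but not after reference gene centring (-0.14, adjusted p = 0.20). *GRH1*, a Golgi peripheral protein, also fell (-0.43), except after reference gene centring (adjusted p = 0.068). *ERV29*, a receptor that loads soluble cargo, rose (0.62, SE 0.13, adjusted p = 0.012), but did not pass after median centring (adjusted p = 0.34). *SAR1*, the GTPase of the coat, did not pass (-0.23, adjusted p = 0.18).

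Of the 5 translocon genes, 2 fell and 0 rose, and the channel gene itself did not pass the test. *SEC61*, the pore subunit, had signals of 2375.0, 2415.1 and 2507.1 with pterostilbene and 2600.9, 2508.3 and 2557.6 in the controls (-0.07, interval -0.29 to 0.14, adjusted p = 0.53). After median centring *SEC61* was lower (-0.52, adjusted p = 0.0033), while it had 0.07 after quantile normalization and 0.06 after reference gene centring. *SEC72*, which belongs to the Sec63p complex and acts in translocation after translation, had signals of 165.9, 246.3 and 198.1 with pterostilbene and 370.0, 299.3 and 313.0 in the controls. It fell to 61.6% of control (-0.70, SE 0.18, adjusted p = 0.023). *SEC62*, another component of this route, had signals of 958.6, 1028.5 and 1225.4 with pterostilbene and 1610.2, 1409.6 and 1495.1 in the controls, and fell to 70.9% (-0.50, SE 0.13, adjusted p = 0.025). Both falls held under the 4 scalings. That of *SEC72* was lost without pterostilbene replicate A or C or control replicate A or C, and that of *SEC62* without pterostilbene replicate A or B or control replicate A or C, with adjusted p of 0.052 to 0.084.

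*SEC66*, whose product binds Sec72p in the same complex, did not pass and lay on the other side of 0, with signals of 629.0, 859.4 and 827.7 with pterostilbene and 657.5, 580.8 and 692.7 in the controls (0.25, adjusted p = 0.24). Within an array the log2 ratio of *SEC72* to *SEC66*, relative to its control mean, was -0.95, -0.83 and -1.09 with pterostilbene, against 0.15, 0.02 and -0.17 in the controls, a pair chosen after the values were seen. *SEC63*, the J-domain protein that works with the chaperone Kar2p, had signals of 239.3, 326.3 and 248.1 with pterostilbene and 247.5, 103.6 and 256.4 in the controls. Its log2 fold change of 0.52 (adjusted p = 0.31) was 0.09 without control replicate B, the array that was also low for *SEC12*.

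Of 17 partners in translocation, 4 (23.5%) rose and 2 (11.8%) fell, against 35.8% and 18.4% of all genes, with a median of -0.17. Those that rose under each of the 4 scalings were *LHS1* (1.44, SE 0.14, adjusted p = 9.1e-04), *KAR2* (0.84, SE 0.10, adjusted p = 0.0017) and *SIL1* (1.05, SE 0.15, adjusted p = 0.0027). *LHS1* and *KAR2* encode chaperones of the ER lumen, and *SIL1* encodes a nucleotide exchange factor of Kar2p. *SPC2*, a subunit of signal peptidase, also rose (0.30, adjusted p = 0.045), but not after quantile normalization (adjusted p = 0.33) or median centring (-0.15). *SRP72*, a subunit of the signal recognition particle (SRP), fell (-0.55, adjusted p = 0.0089), as did the gene for the α subunit of the SRP receptor (-0.91, adjusted p = 0.020). *SSS1* and *SBH1*, the small subunits bound to Sec61p, did not pass (-0.17 and -0.24, adjusted p = 0.19 and 0.17).

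Among the other ER factors, 1 of 4 fell and 0 rose. *SEC53*, phosphomannomutase, which makes the mannose 1-phosphate from which the mannose donors of glycosylation derive, had signals of 2803.2, 2708.8 and 2758.9 with pterostilbene and 5162.0, 5123.8 and 4899.5 in the controls. Its log2 fold change of -0.88 (SE 0.09, adjusted p = 9.5e-04) was the deepest among the *SEC* genes with the signals as deposited, and no array of a group came near the other group. After quantile normalization *SEC53* was at -0.66, and *SEC22* had the deepest value, -1.30. After median centring *SEC53* was again the deepest, at -1.33. *SEC11*, the catalytic subunit of signal peptidase, had signals of 478.1, 449.2 and 302.7 with pterostilbene and 593.4, 569.7 and 634.9 in the controls. The groups did not overlap, but the gene stayed short of the threshold (-0.57, SE 0.20, adjusted p = 0.057). Without pterostilbene replicate C, the lowest array, the log2 fold change was -0.37 (adjusted p = 0.037). *SEC65*, an SRP subunit, had signals of 194.3, 204.5 and 224.3 with pterostilbene and 264.0, 234.5 and 213.9 in the controls (-0.19, adjusted p = 0.25). *SEC59*, dolichol kinase, was close to 0 (0.06, interval -0.23 to 0.36). After quantile normalization all 4 genes of this class were lower, *SEC59* with -0.41 (adjusted p = 0.033), so the direction of *SEC59* depends on the scaling.

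Of the 7 SNAREs and fusion factors, 3 fell and 0 rose, and these 3 act between the Golgi and the ER. *SEC22*, a SNARE of both directions of this traffic, had signals of 91.1, 90.5 and 112.5 with pterostilbene and 186.3, 185.5 and 147.5 in the controls. It fell to 56.7% of control (-0.82, SE 0.15, adjusted p = 0.0076). *SEC20*, a SNARE of the ER at which COPI vesicles fuse, had signals of 170.3, 187.3 and 196.1 with pterostilbene and 292.5, 311.7 and 325.9 in the controls, and fell to 59.5% (-0.75, SE 0.10, adjusted p = 0.0029). *SEC39*, a subunit of the Dsl1 complex that tethers these vesicles at the ER, had signals of 182.0, 200.5 and 205.5 with pterostilbene and 235.3, 246.8 and 256.4 in the controls. Its fall was smaller (-0.33, SE 0.10, adjusted p = 0.039). It did not pass after reference gene centring (adjusted p = 0.095) or with the replicate letter as a block (adjusted p = 0.098). The call was also lost without any array taken singly other than pterostilbene replicate C (adjusted p = 0.080 to 0.11).

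The general fusion machinery did not pass in either direction with the signals as deposited. *SEC18*, the ATPase that takes SNARE complexes apart, had -0.04 (interval -0.30 to 0.22), and *SEC17*, its adaptor, had 0.17 (interval -0.07 to 0.40). *SEC18* was lower after median centring (-0.49, adjusted p = 0.0078). *SEC17* was higher after reference gene centring (0.30, adjusted p = 0.039), but had -0.29 after median centring (adjusted p = 0.053). At the plasma membrane, *SEC1*, which binds assembled SNAREs, had 0.24 (adjusted p = 0.17). *SEC9*, a plasma membrane SNARE, had signals of 278.8, 278.8 and 159.2 with pterostilbene and 199.9, 168.0 and 170.9 in the controls (0.37, adjusted p = 0.27). Pterostilbene replicate C stood with the controls, and without it the gene was higher by 0.64 (adjusted p = 0.014). That was the only 1 of the 16 alternatives in which *SEC9* passed. With all arrays it had -0.03 after quantile normalization (adjusted p = 0.93) and -0.08 after median centring (adjusted p = 0.81). After reference gene centring it had 0.50 (adjusted p = 0.18). Of 16 partners in fusion between the ER and the Golgi, 2 (12.5%) rose and 2 (12.5%) fell, with a median of 0.23. Among all genes 35.8% rose and 18.4% fell. *SED5*, a Golgi SNARE (0.63, adjusted p = 0.0062), and *USO1*, a tether (0.46, adjusted p = 0.045), rose, while *GOS1*, another Golgi SNARE (-0.77, adjusted p = 0.011), and *YPT1*, a Rab GTPase (-0.29, adjusted p = 0.047), fell, but of these only *GOS1* passed the test after quantile normalization. *USO1* has 7 probe sets, and their average gave -0.42 (adjusted p = 0.29).

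**Figure D3:**
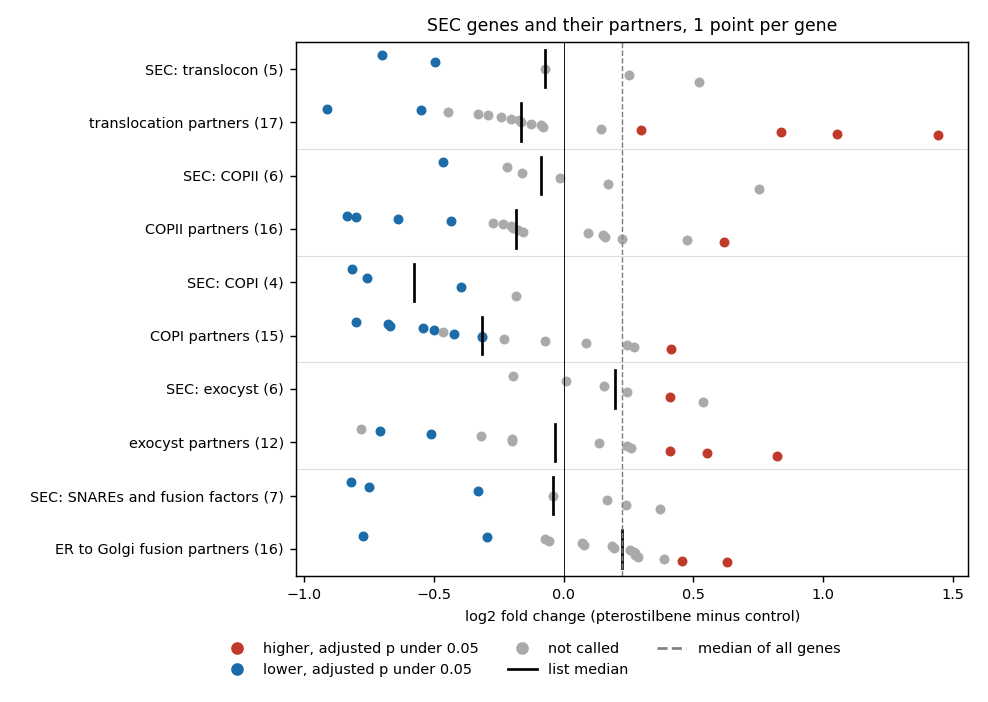
Log2 fold change (x axis, pterostilbene minus control) of the SEC genes of 5 classes and of the partner list of each, 1 point per gene, red for genes that rose, blue for genes that fell and grey for those that did not pass the test. Black bars are list medians, lowest for the COPI genes at -0.58, and the dashed line is the median of all genes at 0.22.

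Of the 4 regulators of the Golgi and of Rab proteins, 2 fell and 0 rose. *SEC14*, a transfer protein for phosphatidylinositol and phosphatidylcholine that Golgi export needs, had signals of 1556.7, 1884.2 and 2451.8 with pterostilbene and 3474.0, 3404.4 and 3174.1 in the controls. It fell to 57.6% of control (-0.79, SE 0.18, adjusted p = 0.016), with the pterostilbene arrays spread widely. It was short of the threshold under quantile normalization (adjusted p = 0.052) and with the replicate letter as a block (adjusted p = 0.052). The same held without pterostilbene replicate B (adjusted p = 0.056) and without control replicate A (adjusted p = 0.052). *SEC7*, an exchange factor that activates Arf at the late Golgi, had signals of 975.3, 998.2 and 862.7 with pterostilbene and 1321.9, 1427.9 and 1578.6 in the controls, and fell to 65.6% (-0.61, SE 0.12, adjusted p = 0.0088). *SEC4*, the Rab GTPase of secretory vesicles, had signals of 770.7, 858.4 and 657.5 with pterostilbene and 811.6, 761.4 and 866.2 in the controls (-0.10, interval -0.43 to 0.23), and the groups overlapped. *SEC2*, its exchange factor, was at -0.01 (interval -0.31 to 0.28), but at -0.51 after quantile normalization (adjusted p = 0.020).

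The exocyst was the only class with a positive median log2 fold change with the signals as deposited, although the mean over the COPII genes was also just above 0 (0.01). Of its 6 *SEC* genes, 1 rose and 0 fell, 5 had a positive log2 fold change, and the median of 0.20 was close to that of all genes. *SEC3*, a subunit that marks sites of secretion, had signals of 532.3, 531.0 and 503.1 with pterostilbene and 385.7, 424.5 and 369.8 in the controls. It rose to 133% of control (0.41, SE 0.10, adjusted p = 0.019), but the log2 fold change was 0.15 after quantile normalization (adjusted p = 0.31) and -0.042 after median centring, so its direction depends on the scaling. It was also lost without pterostilbene replicate A or B or control replicate A or C (adjusted p = 0.052 to 0.071). *SEC8*, another subunit, had signals of 100.5, 114.4 and 125.6 with pterostilbene and 83.9, 90.0 and 62.4 in the controls (0.54, SE 0.18, adjusted p = 0.052). *SEC10*, also a subunit, had signals of 179.8, 176.9 and 181.2 with pterostilbene and 158.0, 168.7 and 157.1 in the controls (0.15, SE 0.09, adjusted p = 0.20), a small difference with no overlap of the groups.

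The remaining subunits did not pass the test. *SEC15*, which binds Sec4p, had 0.24 (interval -0.11 to 0.59), *SEC6* had 0.01 (interval -0.27 to 0.29) and *SEC5* had -0.20 (interval -0.52 to 0.13), with *SEC5* lower after quantile normalization (-0.56, adjusted p = 0.016). Of 12 partners at the plasma membrane, 3 (25%) rose and 2 (16.7%) fell, against 35.8% and 18.4% of all genes, with a median of -0.03. *MSO1*, which binds Sec1p (0.82, SE 0.14, adjusted p = 0.0057), *SNC2*, a vesicle SNARE (0.55, SE 0.12, adjusted p = 0.015), and *SSO1*, a plasma membrane SNARE (0.41, adjusted p = 0.023), rose. Of these, *MSO1* and *SNC2* passed after quantile normalization, and none of the 3 passed after median centring. *CDC42*, a GTPase of polarity (-0.71, SE 0.11, adjusted p = 0.0044), and *MYO2*, the myosin motor that carries secretory vesicles (-0.51, adjusted p = 0.033), fell, and *MYO2* did not pass after reference gene centring (adjusted p = 0.067). *EXO84*, an exocyst subunit outside the *SEC* genes, did not pass (0.26, adjusted p = 0.17), nor did *EXO70* (-0.32, adjusted p = 0.32), whose mean signals were 27.6 with pterostilbene and 33.6 in the controls.

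Classes were set against each other within each array, where a factor that multiplies all signals of the array equally cancels. A factor that varies with signal strength does not cancel. The value is the mean log2 signal of a class minus that of another, relative to the control mean, and 6 pairs of 4 classes were compared, as a description with no test because the members had been chosen with results known. COPI minus the exocyst was -0.70, -0.64 and -0.85 on the pterostilbene arrays, against -0.11, -0.02 and 0.13 on the control arrays. COPI minus COPII was -0.44, -0.53 and -0.67 with pterostilbene and -0.06, 0.15 and -0.09 in the controls. Neither pair overlapped, and the means of the pterostilbene arrays were -0.73 and -0.55. Both pairs stayed separate after quantile normalization, but with smaller means of -0.39 and -0.46. COPI minus the translocon was -0.25, -0.52 and -0.55 with pterostilbene and -0.19, 0.26 and -0.07 in the controls, a narrow gap that closed after quantile normalization, where the groups overlapped. The other 3 pairs overlapped. The mean for the translocon minus COPII was -0.11, for the translocon minus the exocyst -0.29 and for COPII minus the exocyst -0.18. After quantile normalization the same means were -0.13, -0.06 and 0.06. The COPI genes all lay in the brightest quintile of genes and none of the exocyst genes did, and the part of signal strength in these differences was not tested. Single low signals also enter the class means. These include *SEC12* (133.8) and *SEC63* (103.6) on control replicate B and *SEC28* (571.0) on pterostilbene replicate C. Their part in the differences was not tested either.

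**Figure D4:**
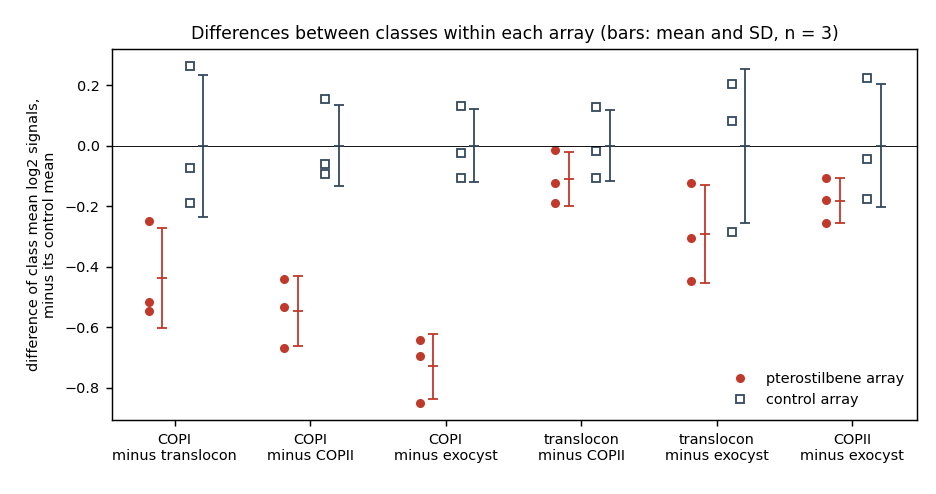
Difference between the mean log2 signals of 2 classes of SEC genes within each array, minus its control mean (y axis), for 6 pairs of classes (x axis). Circles are pterostilbene arrays and squares control arrays with mean and SD (n = 3 each), and the circles lie below all squares for the 3 pairs that begin with COPI.

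The order of the class medians changed between scalings. COPI was at -0.58 with the signals as deposited, -0.58 after quantile normalization, -1.03 after median centring and -0.44 after reference gene centring. The exocyst was at 0.20, -0.24, -0.25 and 0.33 in the same order, so its sign turned with the scaling while that of COPI did not. The translocon was at -0.07, 0.07, -0.52 and 0.06, and COPII at -0.09, -0.18, -0.54 and 0.05. The other ER factors were at -0.38, -0.63, -0.83 and -0.25, the Golgi and Rab regulators at -0.35, -0.58, -0.81 and -0.22, and the SNAREs and fusion factors at -0.04, -0.27, -0.49 and 0.09. COPI was the lowest of the 7 classes except after quantile normalization, where the other ER factors (-0.626) and the Golgi and Rab regulators (-0.582) lay below it (-0.577). Relative to the median of all genes, COPI lay 0.80 log2 units lower with the signals as deposited and 0.45 lower after quantile normalization, while the exocyst lay 0.02 and 0.11 lower. Median centring and reference gene centring leave the values with the signals as deposited unchanged by construction.

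**Figure D5:**
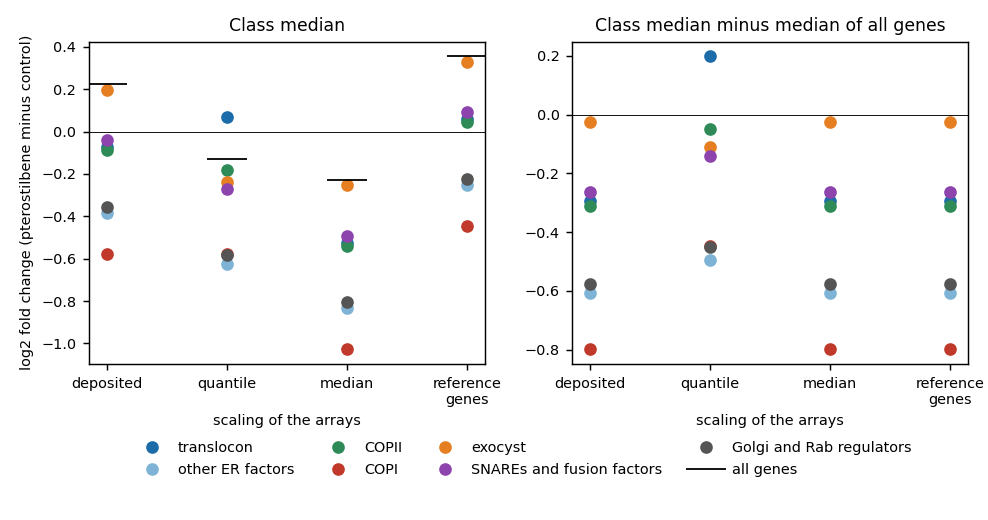
Median log2 fold change (y axis, pterostilbene minus control) of the 7 classes of SEC genes under 4 scalings of the arrays (x axis), as such on the left, with all genes as black bars, and minus the median of all genes on the right. COPI stays below 0 in both panels, and the exocyst, at 0.20 with the signals as deposited, is at -0.25 after median centring.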

How the data were processed

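RNA of 3 pterostilbene and 3 control cultures was hybridized to Affymetrix Yeast Genome S98 arrays. The deposited values are linear intensities, 1 per probe set and array, which the authors made and scaled with Affymetrix software (GCOS 1.1 in the submitters' processing notes). The summarisation, background and scaling target are not given in the sources used here. The number of arrays limits the precision.

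Of 9335 probe sets, 60 controls were set aside. Signals were converted to log2 with the 23 zeros replaced by 0.1, which was the lowest signal above 0, and compared with limma 3.58.1 (lmFit, eBayes) in R 4.3.3, with Benjamini-Hochberg adjustment over 9275 probe sets. The script was tested on simulated data. The platform annotation named several genes for 328 probe sets and none for 2443, which were tested but not counted as genes. Roles come from textbook knowledge. The members, classes and 5 partner lists were chosen with earlier results of these data known. Named in full were up to 3 members of each class with the smallest adjusted p and members against their class; other members, and up to 3 partners per direction with the smallest adjusted p, were named with values. Other partners, and the ratios of gene pairs, were named after their values were seen.

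Alternatives were quantile normalization, median centring, centring on *ACT1*, *ALG9*, *TAF10*, *TFC1* and *UBC6*, a pseudocount of 8.7 (the 10th percentile), a floor of 22.7 (the 20th percentile), leaving out the dimmest 25%, a block for the replicate letter, averaging the probe sets of a gene, moderation with trend and robust options, the methods' t-test, and omission of each array. Promoter motifs were not searched.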

Additional observations from a re-analysis of the deposited data

Results flagged for a closer look

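The poly-A control probe sets, 12 in number and meant for bacterial RNA added before labelling, averaged 5.11-fold more signal with pterostilbene than in the controls, while 9 hybridization control probe sets, added after labelling, differed by 1.06-fold. These probe sets enter no comparison of the *SEC* genes. Their part in the scaling of the arrays was not tested.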

How the results depend on the processing

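Of 576 repeats of the *SEC* log2 fold changes (36 genes, 16 alternatives), 467 kept their direction and their side of the threshold. The lower count of 12 became 26 after median centring and 6 with the replicate letter as a block. The higher count of 1 became 0 after quantile normalization, median centring and with the replicate block, 2 with a pseudocount, a floor, the methods' t-test or probe sets averaged, 3 with the dimmest 25% left out or trend and robust moderation, and 4 after reference gene centring. In the exocyst the higher count of 1 became 0 after quantile normalization, median centring and with the block, 3 after reference gene centring, and 2 with a pseudocount, a floor, the dim filter, trend and robust moderation, probe sets averaged or the methods' t-test, and the lower count of 0 became 1 after quantile normalization and 3 after median centring. In COPII 1 gene was higher with the dim filter and with trend and robust moderation, and 4 were lower after median centring. The block took the lower counts of the translocon and COPII to 0. Same-letter arrays did not deviate together (r of -0.04 to -0.01), but this cannot show whether cultures of the same letter were grown or processed together. Over all genes the block gave 1589 higher and 702 lower.

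The median over the *SEC* genes was -0.33 after quantile normalization, -0.58 after median centring and 0.00 (0.0022) after reference gene centring. Median centring moved the translocon to -0.52, COPII to -0.54, COPI to -1.03 and the exocyst to -0.25, reference gene centring moved COPI to -0.44 and the exocyst to 0.33, and quantile normalization moved the exocyst to -0.24. With each array left out, the counts were 6 to 12 lower and 0 to 2 higher over the *SEC* genes, 0 to 2 lower in the translocon, 0 to 1 lower in COPII, 2 to 3 lower in COPI and 0 to 1 higher in the exocyst, and the medians were -0.16 to -0.090 over the *SEC* genes, -0.62 to -0.53 for COPI and 0.13 to 0.24 for the exocyst.

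Many small values changed sign with the scaling. Of the 13 *SEC* genes with a positive log2 fold change, 10 were negative after median centring and 8 after quantile normalization, and of the 23 with a negative one, 5 were positive after reference gene centring and 1 after quantile normalization. Of 33 positive partners, 24 and 20 turned negative after median centring and quantile normalization, and of 43 negative ones 6 turned positive after reference gene centring. Turns of genes that passed the test with the signals as deposited or as rescaled were those of *SEC59* (-0.41 after quantile normalization, -0.39 after median centring) and, after median centring, of *SEC3* (-0.042), *SEC6* (-0.44), *SEC10* (-0.30), *SPC2* (-0.15), *SED4* (-0.36), *EMP47* (-0.29), *UFE1* (-0.040) and *SSO1* (-0.042). *UFE1* turned after quantile normalization (-0.022) and *USO1* with probe sets averaged (-0.42). The cause was not tested.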
